A study of Mus musculus with 4 samples.

Results

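The cartilage matrix genes considered here are 10 genes of 16218 in the deposited table, found by their symbols. They fall into 7 genes, Acan, Hapln1, Comp, Chad, Clec3a, Matn1 and Col10a1, and 3 genes of fibrillar and associated collagens, Col2a1, Col9a1 and Col11a1. The members and this division were chosen from their values in the same treatment contrast, so those values are given as a description with no test. RNA had been sequenced from thyroids of NOD.H-2h4 mice, which are used as a model of spontaneous autoimmune thyroiditis, after injections 3 times a week for 2 weeks. There were 2 libraries from mice given an antibody against PD-L1 and 2 from mice given an isotype control IgG. PD-L1 is a ligand of PD-1, an inhibitory receptor of T cells. The labels give a different clone string for every library, 10F.9G2 and 10F.9G3 for anti-PD-L1 and LTF2 and LTF3 for IgG, so clone string and library cannot be told apart. The genotype field of the labels repeats the treatment, and it gives neither the age nor the sex of the mice. The study asked which genes PD-L1 blockade alters in the thyroid, a gland that lies against the tracheal and laryngeal cartilages, and its design text does not mention cartilage.

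Cartilage matrix is made by chondrocytes. Its fibrils are built from type II collagen with types IX and XI, and between them sits aggrecan, a large proteoglycan held on hyaluronan by link protein. Smaller glycoproteins such as matrilin, COMP and chondroadherin connect the fibrils, the proteoglycan and the cells. Type X collagen is known from hypertrophic chondrocytes, and the transcription factor SOX9 with SOX5 and SOX6 drives many cartilage genes.

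In anti-PD-L1 thyroids the 7 genes had between 2.46-fold (Chad) and 9.73-fold (Col10a1) lower fitted levels than in IgG thyroids, while the 3 collagens had fitted log2 fold changes between −0.30 and 0.09. The median log2 fold change, anti-PD-L1 over IgG, was −2.49 for the 7 genes, −0.25 for the 3 collagens and 0.00021 over all 16217 genes tested. All 10 genes passed the filter on low counts. For each of the 7 genes both anti-PD-L1 libraries lay below both IgG libraries, as they did for 13.1% of all genes, and for 0.956% of all genes when a log2 change of at least 1 was also required. The same held for Col2a1 and Col11a1, by a much smaller distance. The choice of members used these values, so nothing is read from the counts. In whole tissue, fewer chondrocytes and less RNA per chondrocyte cannot be told apart.

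Levels are CPM, counts scaled to library size with TMM factors that correct for library composition, and CPM is not adjusted for gene length. Library totals ran from 75591923 to 79663374.5 counts. Tg, the gene of thyroglobulin and a defining marker of the thyroid, took 4.34% and 16.9% of counts in anti-PD-L1 thyroids (replicates 1 and 2), against 15.3% and 14.6% in IgG thyroids. Anti-PD-L1 replicate 1 also stood apart in Xist, the RNA of the inactive X chromosome, with 1.40 CPM where the other 3 libraries had 67.7 to 72.7 CPM. It had 62.6 CPM of Ddx3y, a gene of the Y chromosome, where the others had 0.350 to 0.790 CPM. The 2 anti-PD-L1 libraries thus differ in markers of sex, which the labels do not give. Without that library the median log2 fold change was −2.63 for the 7 genes and −0.21 for the 3 collagens. Over all genes edgeR's quasi-likelihood test called 0 genes at a Benjamini-Hochberg adjusted p under 0.05, with 982 genes at an unadjusted p under 0.05 (6.06%). With limma voom the adjusted count was 0 too, beside 1047 genes (6.46%) below 0.05 before adjustment, whereas DESeq2 called 528. The titles name a mouse for each library but no litter or day, and p-values measure only the spread between these libraries.

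The sequence before the transcription start is shown for 3 of the 7 genes and 1 collagen, to set members with unlike fold changes side by side. The 250 bases upstream of the RefSeq start were taken from GRCm38.p6, all on the plus strand, 5′ to 3′. Capitals mark letters searched for on both strands: the SOX-type words ACAAAG with its variant ACAATG, and TCAAAG with its variant TCAATG, the RUNX-type word TGTGGT, and the word TATAAA. No 2 of the marked words overlap.
Acan, chr7:79052976-79053225: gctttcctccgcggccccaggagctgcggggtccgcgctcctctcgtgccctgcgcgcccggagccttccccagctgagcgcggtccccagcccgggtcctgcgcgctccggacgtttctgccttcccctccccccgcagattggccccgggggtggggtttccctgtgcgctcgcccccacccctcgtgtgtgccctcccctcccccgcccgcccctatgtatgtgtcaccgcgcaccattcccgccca
Matn1, chr4:130944135-130944384: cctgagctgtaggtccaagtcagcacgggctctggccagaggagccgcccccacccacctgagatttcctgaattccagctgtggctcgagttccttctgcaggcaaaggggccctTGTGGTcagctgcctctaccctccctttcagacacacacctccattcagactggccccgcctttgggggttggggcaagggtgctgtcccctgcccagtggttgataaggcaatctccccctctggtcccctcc
Col10a1, chr10:34389731-34389980: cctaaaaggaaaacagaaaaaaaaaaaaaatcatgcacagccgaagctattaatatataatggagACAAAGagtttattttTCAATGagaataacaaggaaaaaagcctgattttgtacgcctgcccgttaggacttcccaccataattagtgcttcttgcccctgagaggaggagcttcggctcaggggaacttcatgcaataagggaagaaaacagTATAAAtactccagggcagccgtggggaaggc
Col9a1, chr1:24177360-24177609: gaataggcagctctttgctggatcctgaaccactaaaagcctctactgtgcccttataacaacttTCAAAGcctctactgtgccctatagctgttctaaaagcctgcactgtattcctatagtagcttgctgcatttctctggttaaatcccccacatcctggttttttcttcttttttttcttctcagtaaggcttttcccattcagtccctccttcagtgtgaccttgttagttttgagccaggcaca
The Acan window held none of the words and was 74.4% G and C. The Matn1 window (62.0% G and C) held 1 RUNX-type word. The Col10a1 window (41.6% G and C) held 2 SOX-type words and 1 TATAAA, and the Col9a1 window (43.6%) held 1 SOX-type word. Among 32851 RefSeq promoter windows of the same length, 39.4% held a SOX-type word, 14.0% the RUNX-type word and 12.4% TATAAA, with a median of 52.4% G and C. The Col9a1 window belongs to the first of its 2 RefSeq starts, and the window of the other start held none of the words. Windows were found for 7 of the 10 genes, not for Comp, Clec3a and Col2a1. That of Hapln1 held 1 RUNX-type word, that of Chad 1 TATAAA, and that of Col11a1 none of the words. A match describes letters, not a bound site.

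Aggrecan and its link protein were both lower after anti-PD-L1. Acan, the aggrecan gene, spans 79053483 to 79115099 of chromosome 7 (GRCm38). It had 7.35 and 10.6 CPM in anti-PD-L1 thyroids, against 56.3 and 75.1 CPM in IgG thyroids. Both anti-PD-L1 libraries were far below both IgG libraries, and the log2 fold change was −2.87 ± 0.28 (SE, n = 2 per group). Hapln1, which encodes the link protein that fixes aggrecan to hyaluronan, spans 89539796 to 89611652 of chromosome 13. It had 1.10 and 1.60 CPM in anti-PD-L1 thyroids, against 5.49 and 6.78 CPM in IgG thyroids. Its groups did not overlap either, at counts of 81 and 130 in anti-PD-L1 thyroids, against 439 and 516 in IgG thyroids. Its log2 fold change was −2.18 ± 0.31.

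The 3 bridging glycoproteins were lower by unequal amounts. Comp encodes cartilage oligomeric matrix protein, which binds several collagens and is also made in tendon. On chromosome 8 from 70373558 to 70382066, it had 5.46 and 4.27 CPM in anti-PD-L1 thyroids, against 13.7 and 22.4 CPM in IgG thyroids. The IgG libraries differed from each other more than the anti-PD-L1 libraries did, without overlap, and the log2 fold change was −1.89 ± 0.32. Matn1 encodes matrilin-1, which is abundant in tracheal cartilage. On chromosome 4 from 130944385 to 130955475, it had 3.85 and 1.75 CPM in anti-PD-L1 thyroids, against 13.3 and 18.3 CPM in IgG thyroids. Its 283 and 142 counts in anti-PD-L1 thyroids have 95% Poisson intervals of 251 to 318 and 119.6 to 167.4, which cover counting error only, so the libraries of that group differed beyond counting error. The log2 fold change was −2.49 ± 0.47, with −3.17 without anti-PD-L1 replicate 1 and −2.05 without anti-PD-L1 replicate 2. Chad encodes chondroadherin, a leucine-rich repeat protein that binds collagen and cells. On chromosome 11 from 94565047 to 94569127, it had 16.7 and 13.7 CPM in anti-PD-L1 thyroids, against 30.9 and 43.9 CPM in IgG thyroids. This was the least reduced of the 7 genes, with a log2 fold change of −1.30 ± 0.24.

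Clec3a and Col10a1 had the lowest log2 fold changes of the 10 genes. Clec3a encodes a secreted C-type lectin-like protein found in cartilage. On chromosome 8 from 114418086 to 114425846, it had 1.54 and 2.49 CPM in anti-PD-L1 thyroids, against 15.9 and 19.1 CPM in IgG thyroids. The groups were far apart, and the log2 fold change was −3.12 ± 0.32. Col10a1, the gene of the single chain of type X collagen, spans 34389981 to 34397085 of chromosome 10. It had 6.78 and 18.6 CPM in anti-PD-L1 thyroids, against 113.4 and 133.8 CPM in IgG thyroids. Both anti-PD-L1 libraries were well below both IgG libraries but differed 2.75-fold from each other, the widest gap within a group among the 10 genes. The log2 fold change was −3.28 ± 0.55, with −2.73 without anti-PD-L1 replicate 1 and −4.20 without anti-PD-L1 replicate 2. An 18-base stretch of Col10a1 exon overlaps an exon of Nt5dc1 on the opposite strand, and reads there cannot be told apart where counting ignores strand. No exon of the other 9 genes overlaps another gene in GENCODE release M21.

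**Figure D1:**
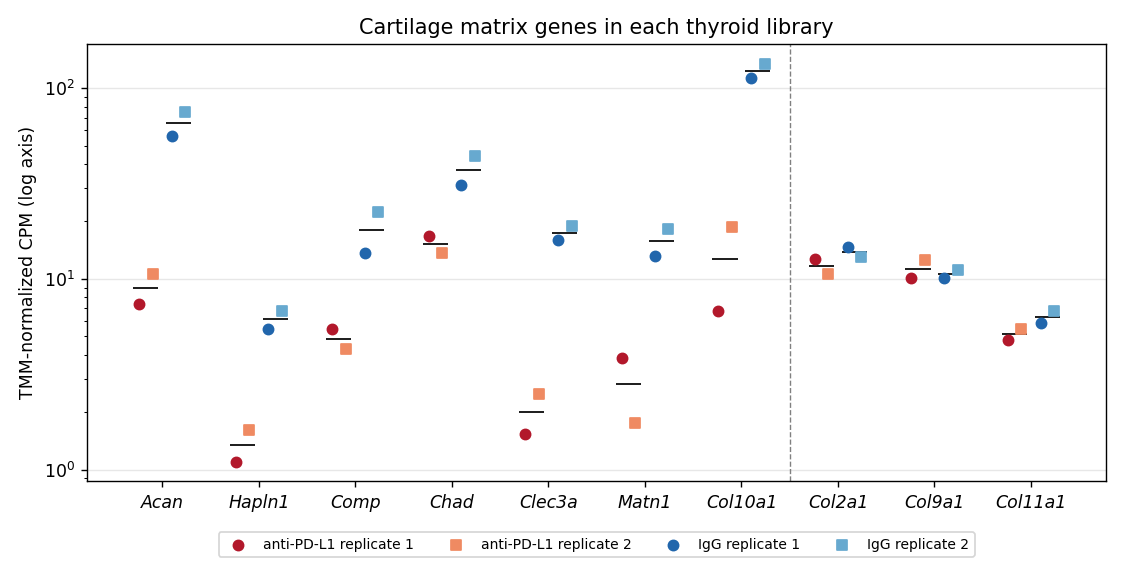
Level of each of the 10 genes in TMM-normalized CPM on a log axis, with points for the 4 libraries, anti-PD-L1 left of IgG for each gene, and short lines for the mean of each group. Left of the dashed line, anti-PD-L1 points lie below IgG points with a gap for all 7 genes. Right of it, the points of both groups lie close together, and for Col9a1 they interleave.

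The fibril collagens had fitted fold changes near 0. Col2a1 encodes the chain of type II collagen, the main fibril of cartilage. On chromosome 15 from 97975602 to 98004695, it had 12.7 and 10.6 CPM in anti-PD-L1 thyroids, against 14.8 and 13.0 CPM in IgG thyroids. The nearest libraries of both groups were 12.7 and 13.0 CPM, and the log2 fold change was −0.25 ± 0.19. Col11a1 encodes a chain of type XI collagen, which sits inside type II fibrils. On chromosome 3 from 114030540 to 114220718, it had 4.78 and 5.46 CPM in anti-PD-L1 thyroids, against 5.84 and 6.76 CPM in IgG thyroids. Its groups were narrowly apart, with a log2 fold change of −0.30 ± 0.22. Col9a1 encodes a chain of type IX collagen, which coats the fibril. On chromosome 1 from 24177610 to 24252684, it had 10.1 and 12.5 CPM in anti-PD-L1 thyroids, against 10.1 and 11.2 CPM in IgG thyroids. The groups overlapped, and the log2 fold change was 0.09 ± 0.20, with 0.23 without anti-PD-L1 replicate 1 and −0.09 without anti-PD-L1 replicate 2. The deposited counts of Col2a1 and Col9a1 end in 0.5 in some libraries, as in 20.5% of genes in the table.

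Counts can also be set against Col2a1 within a library, so that no scaling between libraries enters. These ratios use the counts that chose the members and their division, so they restate the values above on another scale and add no support. For each Col2a1 count there were 0.577 and 1.00 Acan counts in anti-PD-L1 thyroids, against 3.82 and 5.77 in IgG thyroids. Col10a1 gave 0.532 and 1.76 counts per Col2a1 count in anti-PD-L1 thyroids, against 7.69 and 10.3 in IgG thyroids. For Chad, the member of the 7 with the smallest change, the ratio was 1.31 and 1.29 in anti-PD-L1 thyroids, against 2.10 and 3.37 in IgG thyroids. For all 7 genes the highest anti-PD-L1 ratio was below the lowest IgG ratio. The Col9a1 ratio was 0.793 and 1.18 in anti-PD-L1 thyroids, against 0.685 and 0.857 in IgG thyroids, so these groups overlapped. The Col11a1 ratio overlapped too, with 0.375 and 0.515 in anti-PD-L1 thyroids and 0.396 and 0.519 in IgG thyroids. The 7 genes made up 60.8% and 65.0% of the counts of the 10 in anti-PD-L1 thyroids, against 89.0% and 91.2% in IgG thyroids.

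**Figure D2:**
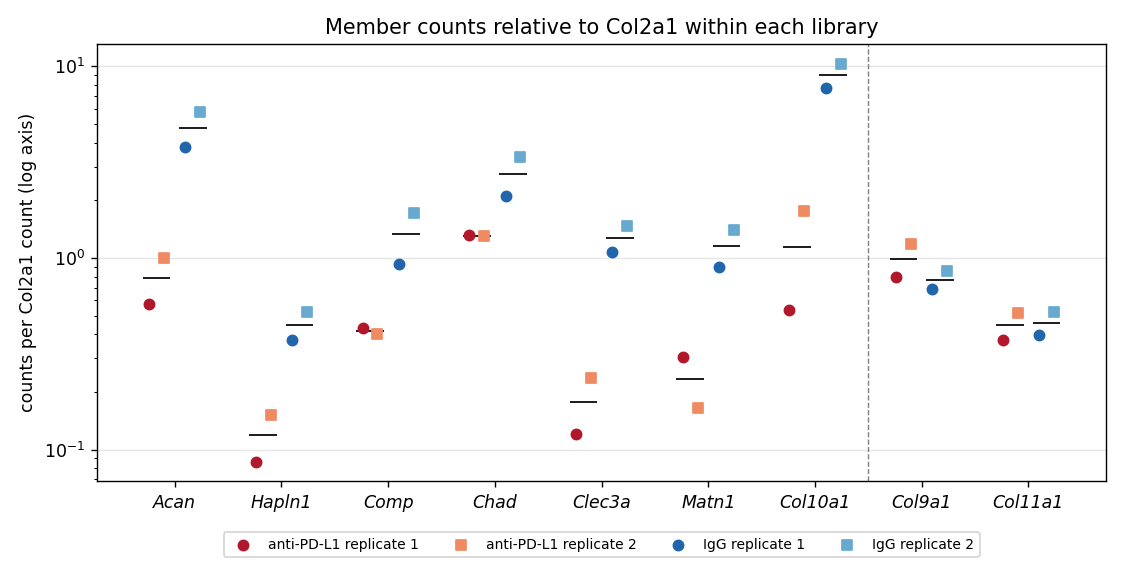
Counts of 9 genes divided by the Col2a1 count of the same library, on a log axis, anti-PD-L1 points left of IgG points, with short lines for group means. The ratios of the 7 genes left of the dashed line are lower in both anti-PD-L1 libraries, while those of Col9a1 and Col11a1 overlap between the groups.

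The 7 genes varied the same way within the IgG group but not within the anti-PD-L1 group. IgG replicate 2 was above IgG replicate 1 for all 7, by 1.18-fold (Col10a1) to 1.63-fold (Comp). In the anti-PD-L1 group, replicate 2 was above replicate 1 for Acan (1.45-fold), Hapln1 (1.46-fold), Clec3a (1.62-fold) and Col10a1 (2.75-fold). For Comp, Chad and Matn1 it was below, with ratios of 0.782, 0.820 and 0.455. The link protein and aggrecan thus had nearly equal ratios between these libraries, while matrilin-1 and type X collagen went opposite ways. Col2a1 was lower in replicate 2 in each group, with ratios of 0.831 in anti-PD-L1 and 0.883 in IgG.

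Levels can be compared between genes per kilobase of exon (GENCODE M21, all exons of a gene merged). In anti-PD-L1 thyroids the order of mean CPM per kilobase was Chad (9.05), Col10a1 (4.06), Clec3a (3.41), Col9a1 (2.23), Comp (1.64), Matn1 (1.40), Col2a1 (1.26), Acan (1.20), Col11a1 (0.401) and Hapln1 (0.229). The ranges of Col10a1 and Clec3a overlapped there, as did those of each neighbouring pair from Comp to Acan. In IgG thyroids the order was Col10a1 (39.5), Clec3a (29.6), Chad (22.3), Acan (8.80), Matn1 (7.87), Comp (6.09), Col9a1 (2.10), Col2a1 (1.50), Hapln1 (1.04) and Col11a1 (0.494). Among IgG neighbours, Acan overlapped with Matn1 and Matn1 with Comp. Type II collagen therefore ranked below aggrecan in IgG thyroids, whereas the ranges of both overlapped in anti-PD-L1 thyroids. The merged exons of Clec3a are 591 bases long in the annotation, the shortest of the 10, which raises its value on this scale.

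Other cartilage genes that are not among the 10 members were examined by role, in lists drawn up with earlier results of these data known. Of 65 such genes, 54 were in the table, one of them (Snorc) under the older symbol 3110079O15Rik. Their median log2 fold change was −0.18, and edgeR called 0 of them after adjustment over all genes (smallest adjusted p = 0.32). The genes not in the table were not analysed here. At an unadjusted p under 0.05 edgeR had 5 of the 54 lower and 2 higher, where 1.10% of all genes were lower and 4.96% higher. The groups did not overlap for 17 lower and 9 higher, where all genes had 13.1% and 16.5%. With a log2 change of at least 1 as well, 5 were lower and 2 higher, where all genes had 0.956% and 3.92%. DESeq2 called 3 lower and 1 higher, where it called 0.327% and 2.93% of all genes. With limma voom 10 had an unadjusted p under 0.05 in either direction, where all genes had 6.46%. Every gene in the table reached at least 100 counts in some library. Snorc and Matn3, which are among the lower genes in each of these counts, did so only in IgG thyroids. Both were thus listed only through the group where they were higher, which limits what these counts show. Without anti-PD-L1 replicate 1 the edgeR count at an unadjusted p under 0.05 was 15 (9 lower and 6 higher), where that fit had 6.73% of all genes lower and 7.16% higher. Without anti-PD-L1 replicate 2 it was 14 (13 lower and 1 higher), where that fit had 6.69% of all genes lower and 6.48% higher. Over all genes, too, a larger share had an unadjusted p under 0.05 in these fits than in the fit with every library.

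The other collagen chains lay near the collagen members. Of these 4, 0 had an unadjusted p under 0.05 with edgeR or limma voom and 0 were called by DESeq2, and their median log2 fold change was −0.18. Col9a2, whose chain joins that of Col9a1 in type IX collagen, had 5.61 and 4.12 CPM in anti-PD-L1 thyroids, against 6.77 and 6.12 CPM in IgG thyroids, a log2 fold change of −0.41 ± 0.25. Col9a3, the third chain of type IX, had 5.12 and 10.3 CPM in anti-PD-L1 thyroids, against 6.73 and 7.81 CPM in IgG thyroids. The anti-PD-L1 libraries lay on both sides of the IgG libraries. Col11a2, a chain of type XI collagen, had 6.61 and 6.94 CPM in anti-PD-L1 thyroids, against 6.60 and 8.61 CPM in IgG thyroids. Col27a1, a fibrillar collagen also made in cartilage, had a log2 fold change of −0.18 ± 0.22. These chains are not members, but their list too was drawn up with earlier results of these data known.

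Among proteoglycans and leucine-rich repeat proteins, 3 of 10 listed genes were lower at an unadjusted p under 0.05 and 0 higher (1.10% and 4.96% of all genes), with a median log2 fold change of −0.29. 3110079O15Rik (Snorc), which encodes a small transmembrane chondroitin sulfate proteoglycan of chondrocytes, had 0.612 and 0.185 CPM in anti-PD-L1 thyroids, against 1.90 and 2.77 CPM in IgG thyroids (log2 fold change −2.55 ± 0.65, edgeR adjusted p = 0.469, DESeq2 adjusted p = 0.0161). Omd encodes osteomodulin, a keratan sulfate proteoglycan of mineralised tissue. It had 1.81 and 1.38 CPM in anti-PD-L1 thyroids, against 3.66 and 4.54 CPM in IgG thyroids (log2 fold change −1.36 ± 0.28, edgeR adjusted p = 0.32, DESeq2 adjusted p = 0.0087). In both genes the anti-PD-L1 libraries were below the IgG libraries without overlap. Snorc was listed only through its IgG libraries, as said above. The log2 fold change was −0.76 ± 0.28 for Epyc, the gene of epiphycan (edgeR adjusted p = 0.804), and 0.33 ± 0.14 for Ogn, the gene of osteoglycin.

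Among glycoproteins and other secreted cartilage proteins, 1 of 10 was lower at an unadjusted p under 0.05 and 0 higher (1.10% and 4.96% of all genes). Of the 10, 6 were lower without overlap, as were 13.1% of all genes, and the median log2 fold change was −0.32. Matn3, the gene of matrilin-3 and a paralog of Matn1, had 0.925 and 1.07 CPM in anti-PD-L1 thyroids, against 2.15 and 2.89 CPM in IgG thyroids (log2 fold change −1.33 ± 0.30, edgeR adjusted p = 0.375, DESeq2 adjusted p = 0.0444). Matn3, like Snorc, was listed only through its IgG libraries. Ucma, which encodes a small Gla-rich protein of cartilage, had 2.68 and 0.963 CPM in anti-PD-L1 thyroids, against 4.78 and 4.81 CPM in IgG thyroids. Its log2 fold change of −1.40 ± 0.54 did not pass (edgeR adjusted p = 0.859), though the groups were apart. Cytl1, which encodes a secreted cytokine-like protein of chondrocytes, had 52.9 and 17.2 CPM in anti-PD-L1 thyroids, against 109.4 and 75.6 CPM in IgG thyroids. Like Matn1 and Ucma it was lower in anti-PD-L1 replicate 2 than in replicate 1, and its log2 fold change was −1.40 ± 0.59 (edgeR adjusted p = 0.927). Cilp2, of the cartilage intermediate layer protein family, had a log2 fold change of −0.56 ± 0.24.

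The SOX factors had overlapping groups. Sox9 had 61.7 and 112.7 CPM in anti-PD-L1 thyroids, against 97.2 and 105.6 CPM in IgG thyroids (log2 fold change −0.22 ± 0.33). Sox5 had 4.38 and 7.13 CPM in anti-PD-L1 thyroids, against 5.70 and 6.41 CPM in IgG thyroids. Sox6 had 54.4 and 27.3 CPM in anti-PD-L1 thyroids, against 46.5 and 50.2 CPM in IgG thyroids. For these 3 genes both IgG libraries lay between the anti-PD-L1 libraries. Runx2, a factor of hypertrophic chondrocytes and osteoblasts that T cells also express, had higher values, with 7.12 and 6.33 CPM in anti-PD-L1 thyroids, against 2.70 and 3.43 CPM in IgG thyroids (log2 fold change 1.13 ± 0.24, edgeR adjusted p = 0.341, DESeq2 adjusted p = 0.011). Runx3, also a factor of cytotoxic T cells, had 14.2 and 15.8 CPM in anti-PD-L1 thyroids, against 2.48 and 8.63 CPM in IgG thyroids (edgeR adjusted p = 0.959). Summed CPM of 5 T cell markers was 85.1 and 82.8 in anti-PD-L1 thyroids, against 9.53 and 23.6 in IgG thyroids, and their part in the RUNX values was not tested. Barx1 and Trps1 had log2 fold changes of 0.51 ± 0.31 and 0.29 ± 0.17.

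The remaining roles held few low p-values. Of 9 genes for making and sulfating chondroitin sulfate, the chains carried by aggrecan, 1 was lower and 1 higher at an unadjusted p under 0.05 (1.10% and 4.96% of all genes). Chst3, a chondroitin 6-sulfotransferase, had 10.6 and 9.96 CPM in anti-PD-L1 thyroids, against 18.2 and 14.6 CPM in IgG thyroids (log2 fold change −0.68 ± 0.19, edgeR adjusted p = 0.546). The log2 fold change was 0.58 ± 0.21 for Chsy1, a chondroitin synthase (edgeR adjusted p = 0.815), −0.40 ± 0.24 for Xylt1, which starts the chain, and −0.35 ± 0.16 for Slc26a2, a sulfate transporter. Of 5 signalling genes 0 had an edgeR unadjusted p under 0.05 (limma voom 1, DESeq2 called 0), with log2 fold changes of −0.85 ± 0.32 for Frzb, a secreted WNT antagonist of cartilage, and −0.94 ± 0.66 for Fgfr3, a receptor that restrains chondrocyte growth. Gdf5, a growth factor of joints, was at −0.37 ± 0.47, and Bmpr1b, a receptor for it, at 0.09 ± 0.17. Of 6 protease and inhibitor genes 0 did (0 also with limma voom and DESeq2), with log2 fold changes of 0.41 ± 0.21 for Adamts5, an aggrecan-cleaving enzyme, and −0.53 ± 0.50 for Mmp3, the protease stromelysin-1. Timp3, a protease inhibitor, was at −0.20 ± 0.27, and Htra1, a secreted serine protease, at 0.09 ± 0.14. Of 3 mineralisation genes 0 did (0 also with limma voom and DESeq2), with log2 fold changes of −0.35 ± 0.17 for Alpl, the tissue-nonspecific alkaline phosphatase, 0.05 ± 0.20 for Phex, an endopeptidase of bone, and 0.13 ± 0.34 for Dmp1, a dentin and bone matrix protein.

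**Figure D3:**
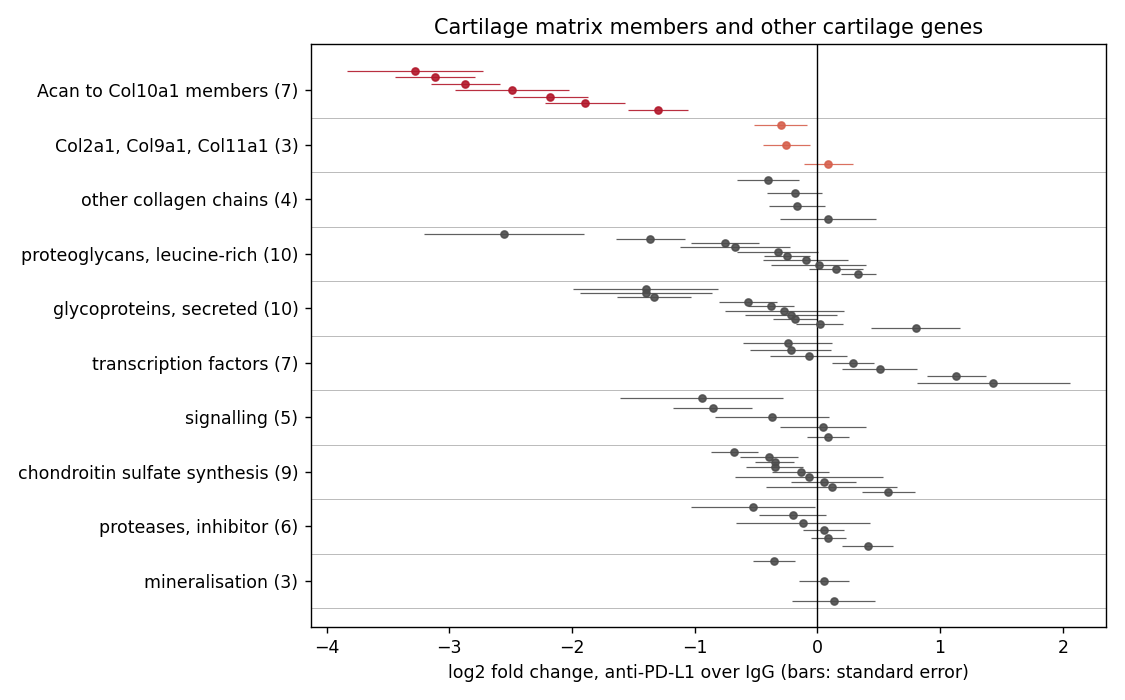
Log2 fold change, anti-PD-L1 over IgG, with standard error bars, for the 10 members (red) and 54 other cartilage genes (grey) by role, with the number of genes in parentheses. The 7 members from Acan to Col10a1 lie between −3.28 and −1.30, the 3 collagen members and 4 other collagen chains between −0.41 and 0.09, and the proteoglycan and glycoprotein rows reach from −2.55 to 0.80.

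Genes with a pattern like that of the 7 members were sought among all genes with a mean of at least 1 CPM, by the smallest root mean square distance of centred log2 CPM over the 4 libraries. The 5 nearest genes were C2cd4b (distance 0.26), Susd5 (0.32), Myh8 (0.38), Ada (0.45) and Has3 (0.49). The members themselves lay at 0.19 (Hapln1) to 0.66 (Col10a1) from their own mean. C2cd4b had 2.15 and 2.38 CPM in anti-PD-L1 thyroids, against 7.10 and 11.96 CPM in IgG thyroids. Has3, which encodes a synthase of hyaluronan, the chain that aggrecan and link protein bind, had 1.99 and 2.55 CPM in anti-PD-L1 thyroids, against 5.54 and 7.46 CPM in IgG thyroids. Susd5 had 3.08 and 3.84 CPM in anti-PD-L1 thyroids, against 11.1 and 13.8 CPM in IgG thyroids. In all 5 genes both anti-PD-L1 libraries lay below both IgG libraries, which a search for the pattern of the 7 members favours. Myh8, a myosin heavy chain of developing muscle, had 150.8 and 168.9 CPM in anti-PD-L1 thyroids, against 423.6 and 666.7 CPM in IgG thyroids. Ada, the adenosine deaminase gene, had 6.42 and 4.64 CPM in anti-PD-L1 thyroids, against 34.9 and 22.1 CPM in IgG thyroids. Over only 4 libraries, likeness is a description. The profile of the 3 collagens is nearly flat and its 5 nearest genes, Fuk, Tdrkh, 4930430F08Rik, Tmem59l and Tti1, had log2 fold changes between −0.17 and −0.15.

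Markers of tissues next to the thyroid were followed, since cartilage is not part of the gland. The 7 members summed to 42.8 and 53.1 CPM in anti-PD-L1 thyroids, against 249.1 and 319.3 CPM in IgG thyroids, and the 3 collagens to 27.6 and 28.6 CPM against 30.7 and 31.0 CPM. All 9 airway secretory markers were listed, and they summed to 26026 and 8567 CPM in anti-PD-L1 thyroids, against 3763 and 17078 CPM in IgG thyroids. All 7 ciliated cell markers summed to 246.1 and 165.0 CPM in anti-PD-L1 thyroids, against 253.4 and 308.3 CPM in IgG thyroids. The secretory sums overlapped between the groups, while the ciliated sums were narrowly apart and lower in anti-PD-L1. Of the 7 ciliated markers 1 was lower without overlap, as were 13.1% of all genes. Tppp3 was the highest of them in every library, and its groups overlapped. It had 164.1 and 50.3 CPM in anti-PD-L1 thyroids, against 187.6 and 152.0 CPM in IgG thyroids. In both lists 0 markers had an unadjusted p under 0.05 with edgeR or limma voom, and DESeq2 called 0. The part of airway tissue in the cartilage values was not tested.

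All 13 interstitial fibroblast matrix genes, which mark connective tissue, were listed, with a median log2 fold change of 0.19. Of them 0 had an unadjusted p under 0.05 with edgeR or limma voom, and DESeq2 called 0. They summed to 1704 and 2700 CPM in anti-PD-L1 thyroids, against 2087 and 2071 CPM in IgG thyroids. The 4 tendon markers, among them Tnmd, summed to 178.4 and 187.3 CPM in anti-PD-L1 thyroids, against 230.6 and 130.0 CPM in IgG thyroids, so their groups overlapped. Of 8 squamous markers 7 were listed, with 4565 and 46.7 CPM in anti-PD-L1 thyroids, against 11127 and 2898 CPM in IgG thyroids. All 7 had negative log2 fold changes (median −1.66), though for 0 of them were the groups apart. With edgeR or limma voom 0 of them had an unadjusted p under 0.05. All 10 skeletal muscle markers summed to 55273 and 20687 CPM in anti-PD-L1 thyroids, against 33588 and 45130 CPM in IgG thyroids. Both of these sums overlapped between the groups. Thyroid follicular markers (10 of 10) summed to 45973 and 166930 CPM in anti-PD-L1 thyroids, against 155554 and 150185 CPM in IgG thyroids. Follicular sums overlapped too. Macrophage markers (6 of 6) were higher where the 7 members were lower, with 786.0 and 717.5 CPM in anti-PD-L1 thyroids, against 155.9 and 209.5 CPM in IgG thyroids. The 2 C cell markers summed to 833.0 and 740.8 CPM in anti-PD-L1 thyroids, against 913.0 and 907.5 CPM in IgG thyroids. That sum was apart and rests on Calca (log2 fold change −0.21 ± 0.28), which was also lower without overlap, as were 13.1% of all genes. Calcb, at 0.42 ± 0.43, overlapped between the groups. Each listed marker in these lists had more than 3 counts in every library, and the part of these tissues in the cartilage values was not tested.

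**Figure D4:**
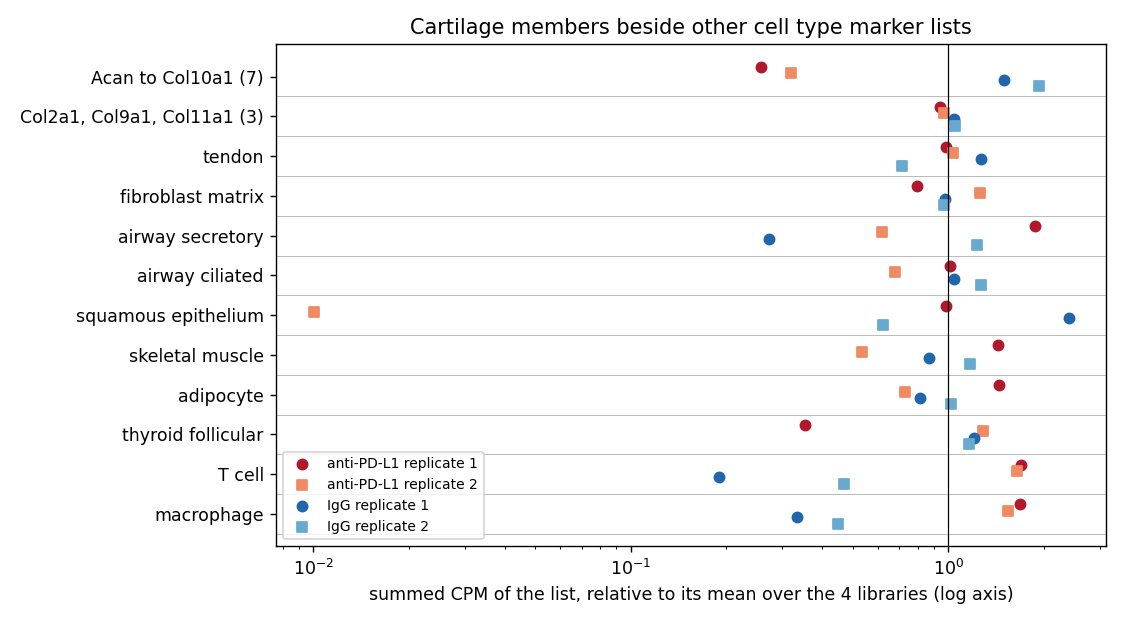
Summed CPM of each list divided by its mean over the 4 libraries, on a log axis, with 1 point per library and anti-PD-L1 points above IgG points in each row. The 7 members lie below 1 in both anti-PD-L1 libraries and above 1 in both IgG libraries, T cell and macrophage markers lie the other way, and the 3 collagens lie close to 1 in all 4 libraries.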

How the data were processed

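Poly(A) RNA of 4 thyroids, 2 per group by their titles, was sequenced with paired ends. The values deposited by the authors are estimated counts, some ending in 0.5, for 16218 gene symbols in 1 table, and library totals in it differ, so they were taken as not normalized. The submitters' processing notes name BWA and mm10, with no role or version, while the counting program, annotation and strand setting were not given in the sources used. Every listed gene reached at least 100 counts in 1 library, so low genes are absent from the table. Blank cells (13) were read as 0 and counts were rounded. edgeR 4.0.16 in R 4.3.3 was run with filterByExpr (16217 genes kept), TMM factors and the two-sided quasi-likelihood test on group, with Benjamini-Hochberg adjustment over all genes. Standard errors came from the fold change and the F statistic (its size over the root of F). The median biological coefficient of variation was 24.4%, and 3 counts correspond to 0.0370 to 0.0408 CPM. An exact permutation test of 2 against 2 libraries cannot reach 0.05, so none was used. The steps were tested on simulated data. The result of 1 marker list is not reported here.

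The members and gene lists were chosen with earlier results of these data known. Named genes were the 10 members, the 4 of smallest p in each cartilage list, list genes with groups apart and an absolute log2 fold change of at least 1, Sox9, Sox5, Sox6, Col9a2, Col9a3, Col11a2, and the 5 genes nearest in pattern. Alternatives were RLE scaling, scaling to library size alone, leaving the filter out, a stricter filter (mean count 20 or more, and 1 CPM or more in 2 libraries), DESeq2 1.42.0, voom from limma 3.58.1, the replicate number as a block, and each library left out. Promoters came from RefSeq on GRCm38.p6 and gene positions from GENCODE M21 on GRCm38, the assembly also called mm10.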

Additional observations from a re-analysis of the deposited data

How the results depend on the processing

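The median log2 fold change of the 7 members stayed between −2.73 and −2.24 with each library left out. That of the 3 collagens lay between −0.21 and −0.14, against −0.25 with every library. In each of these fits the collagen median moved by more than the SD of the replicates (0.030). The difference between both medians (−2.24) ranged from −2.55 to −2.05. Without IgG replicate 1 this difference moved by more than its SD (0.25). Genes called over all genes were 0 under every edgeR and voom setting run and 528 with DESeq2. Other cartilage genes at an unadjusted p under 0.05 numbered 7 with edgeR, 11 with DESeq2 (8 lower and 3 higher) and 5 to 15 with each library left out. For DESeq2 at an unadjusted p, and for the fits without an IgG library, no share of all genes was counted. Their counts of other cartilage genes thus have no background to be compared with, and nothing is read from them. The causes of the differences between settings were not tested. Of 110 single-member values under 11 alternatives, 104 lay within 1 SD of the replicates, and the sign differed in 2, both for Col9a1 (without anti-PD-L1 replicate 2 and without IgG replicate 1, −0.0006). The labels state no pairing by replicate number. Deviations of same-numbered libraries correlated across genes at 0.0998, and with only 2 pairs this cannot decide whether libraries were paired. With the replicate number as a block, edgeR called 0 genes, and the medians were −2.57 and −0.26 (difference −2.32). For that fit too no share of all genes was counted, so its count of other cartilage genes is not given. Precision is limited by 2 libraries per group, and counts of 81 to 130 for Hapln1 are the smallest behind a member value. Leaving out a library leaves 1 arm with a lone library, assumed to vary like the others.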

Other observations

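Several genes of the cartilage lists, chosen here after their values were seen, differed between the anti-PD-L1 libraries in the same order as a thyroid follicular factor. Others of these lists had the opposite order, among them Sox6 and Cytl1, given above. Fgfr3 did too, with 31.3 and 9.34 CPM in anti-PD-L1 thyroids, against 50.6 and 27.6 CPM in IgG thyroids. Pax8, which follicular cells require, had 107.1 and 249.7 CPM in anti-PD-L1 thyroids, against 174.7 and 173.8 CPM in IgG thyroids. Papss2, which makes the sulfate donor for sulfation, had 137.4 and 388.7 CPM in anti-PD-L1 thyroids, against 241.0 and 244.3 CPM in IgG thyroids. Chst11, a chondroitin 4-sulfotransferase, had 36.7 and 126.8 CPM in anti-PD-L1 thyroids, against 85.7 and 85.6 CPM in IgG thyroids. Matn4, a matrilin, had 174.0 and 323.2 CPM in anti-PD-L1 thyroids, against 320.9 and 255.5 CPM in IgG thyroids. Sox9, given above, and Prelp, at 53.9 and 102.9 CPM in anti-PD-L1 thyroids, against 81.1 and 86.2 CPM in IgG thyroids, were also lowest in anti-PD-L1 replicate 1. Cnmd, the gene of chondromodulin and likewise chosen after its values were seen, had 60.9 and 114.7 CPM in anti-PD-L1 thyroids, against 56.8 and 43.9 CPM in IgG thyroids, the highest log2 fold change of the cartilage glycoproteins (0.80 ± 0.36, edgeR adjusted p = 0.987).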
